A study of Mus musculus with 17 samples.

Results

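The effect of a tumor on the diaphragm was measured here among mice that had all received rFibcd1. Diaphragms of 4 LLC + rFibcd1 mice were compared with those of 5 Control + rFibcd1 mice, which were 9 of the 17 mice in the series, chosen by their group labels. Genes entered when they reached at least 1 TPM in at least 3 of the 17 mice, which kept 13305 of 47643 gene symbols. TPM (transcripts per 1000000) corrects read numbers for gene length and gives every mouse the same total.

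All 9 mice were males of strain C57BL/6J, 4 months old, and RNA came from the muscular part of the diaphragm without its tendon. LLC mice carried subcutaneous tumors in both flanks, grown from Lewis lung carcinoma cells, a mouse lung cancer line. rFibcd1 is a recombinant form of mouse Fibcd1, which carries a recognition domain of the fibrinogen type, and both groups were injected with it into the peritoneal cavity. The remaining 8 mice, 5 Control and 3 LLC, had mock injections of albumin in saline, and they served for the question of whether the tumor effect differed with the injection. As a model, the tumor is a single implanted cell line in 1 sex and 1 strain, and the labels call the samples biological replicates without naming cages or litters.

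The diaphragm is a mixed muscle of fast and slow fibers that contracts with every breath. In cancer cachexia, inflammatory cytokines and other tumor-derived signals reach muscle through the blood, and myofibers lose protein through ubiquitin ligases, the proteasome and autophagy. Muscle also has its own circadian clock, which times genes of metabolism and growth, and it holds capillaries, fibroblasts and resident macrophages whose transcripts are measured together with those of the fibers.

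Libraries were deep and even, at 51.1 to 54.7 M reads per mouse recovered from the steps of the low values, so that 1 TPM in a gene of 1000 bases stood for 24.1 to 26.7 reads. The tissue label was borne out by a list of 20 myofiber structure genes, which summed to between 49252 and 61068 TPM in the 9 mice. Mitochondrially encoded transcripts took 47.8% ± 1.93 of TPM in the 5 Control + rFibcd1 mice and 45.2% ± 1.48 in the 4 LLC + rFibcd1 mice (mean ± SD). This difference of -2.57 percentage points did not pass an exact permutation test (two-sided p = 0.0714, where 0.00794 is the smallest p the design allows).

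Some libraries stood apart from their groups before any comparison was made. On the second principal component, which held 25.8% of the variance, Control + rFibcd1 replicate 2 lay at 53.4 and the other 8 mice between -27.6 and 14.3. The same mouse had the highest sum of 16 liver and acute phase genes, 4342 TPM against 64.8 to 858 in the others. Control + rFibcd1 replicate 3 had 46.3 TPM of the neutrophil gene S100a9, where the other 4 mice of its group had 1.29 to 14.4. On the first component, with 48.5% of the variance, Control + rFibcd1 replicate 1 at 32.3 lay beside LLC + rFibcd1 replicates 2 and 3 at 39.3 and 50.9. These 3 mice also had the highest summed level of 12 B cell genes, between 163 and 345 TPM, while the other 6 had 6.53 to 37.6 TPM. Results were therefore recomputed without Control + rFibcd1 replicates 2 and 3. Replicate 3 was singled out by a neutrophil gene, so this setting is no check on the neutrophil genes.

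Between LLC + rFibcd1 and Control + rFibcd1, 1072 of 13305 genes (8.06%) passed an adjusted p of 0.05. Of these, 934 (7.02%) were higher and 138 (1.04%) lower in mice with tumors. Differences are given as log2 changes with their standard error, the difference between group means of log2(TPM + 1) in a limma model of all 17 mice, with Benjamini-Hochberg adjustment over all 13305 genes. At an unadjusted p under 0.05 there were 3786 genes (28.5%), 3314 higher (24.9%) and 472 lower (3.55%). Values of the groups did not overlap in 1185 genes (8.91%), 988 higher (7.43%) and 197 lower (1.48%). The count fell to 304 when only the 9 mice were fitted and to 253 without Control + rFibcd1 replicates 2 and 3, and Dunn's rank test called 0 genes, with 2593 at an unadjusted p under 0.05. Leaving out 1 mouse at a time gave 477 (without LLC + rFibcd1 replicate 3) to 2893 genes (without Control + rFibcd1 replicate 1).

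How many genes counted as higher or lower varied with the normalization. The median log2 change over all genes was 0.11 as deposited, and 87.1% of the called genes were higher. After median-ratio scaling the median was -0.00479 and 209 of 490 called genes (42.7%) were higher. After quantile normalization these values were -0.03 and 183 of 467 (39.2%), and after rescaling without mitochondrially encoded genes 0.06 and 384 of 581 (66.1%). Small changes shared by many genes, and medians near 0, are therefore read against a shift of 0.11. Among the 110 genes named by rule or by hand that passed the adjusted threshold, 64 passed in each of 17 leave-one-out fits, and 45 of these also passed under all 3 other scalings. In 8 of the 17 fits the mouse left out was mock-injected, so the 9 compared mice and the log2 change stayed the same. Counts of fits out of 17 include these 8 and overstate how well a call stood up to leaving out a compared mouse. Of the called genes described next, Arntl's partner Clock and Bhlhe40, the muscle genes Pvalb, Atp2a2, Cacng1, Fst, Colq and Tcap, the myeloid genes S100a8, S100a9, Retnlg, Csf3r, Cxcr2, Stfa2l1, Cx3cr1, Mgl2, Ccl2 and Bcl3, and Cdkn1a, Hk1, Igf2r, Oaz1, Ier2, Dusp6 and Slc4a1 did not pass under at least 1 of them. The same held for Trim63, Fbxo32, Stub1, Bnip3, Gabarap, Map1lc3b, Lamp1, Psmb1, Ctsl, Ctsa, Stat3, Sln, Akt2, Eng, Itga7, Erdr1, Ybx1, Ndufa2, Ndufa7 and mt-Nd4l.

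Of the same 110 genes, 54 passed without Control + rFibcd1 replicates 2 and 3, 50 passed when only the 9 mice were fitted, and 39 passed in both of these settings, which rest on fewer mice. The genes described next that passed in both were the clock genes Arntl, Dbp, Hlf, Tef, Per3 and Ciart, the muscle genes Actc1, Mylk4, Mstn, Mybpc2, Mylpf, Myl1, Tpm1, Sln, Colq and Dok7, the immune genes Chil3, Csf2rb2, Il1b, Il4ra, Cxcl12 and Osmr, the vessel and matrix genes Pecam1, Tek, Col4a1, Col4a2 and Nepn, and Gabarap, Lamp1, Psmb1, Pgk1, mt-Nd6, Mid1ip1, Mdga1, Tmem252, Tmem171, Cbfa2t3 and Ybx1. Ccl8, Erdr1, Per2, Nanp, mt-Nd4l, Pfkfb1, Akt2, Cldn5, Slc4a1, Oaz1 and Nr1d2 lost their calls without Control + rFibcd1 replicates 2 and 3 but not in the fit of the 9 mice. Ackr1, Trim63, Map1lc3b, Cdkn1a, Eno3, Pik3r1, Fst, Vwf and the neutrophil genes S100a8, S100a9, Retnlg, Cxcr2 and Stfa2l1 lost theirs in the fit of the 9 mice alone. Those of the 110 that are described next and not named here, such as Retnla, Casq1 and Clock, passed in neither. Counts of list members that rose or fell are to be read beside the 7.02% and 1.04% of all genes called in that direction, also where these shares are not repeated.

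Genes of the circadian clock moved in both directions. The circadian clock is a feedback loop in which CLOCK and BMAL1, the product of Arntl, activate the Per and Cry genes, whose products repress them. In the same loop Nr1d1 and Nr1d2 encode repressors of Arntl, and Dbp, Hlf and Tef encode related transcription factors that carry the rhythm to other genes. Of 19 clock and output genes 18 were measured, and 3 rose and 7 fell, 55.6% of the list beside the 8.06% of all genes. The list had a median log2 change of -0.40, beside 0.11 over all genes. Without Control + rFibcd1 replicates 2 and 3, 1 gene rose and 6 fell.

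Arntl (chromosome 7, 113207465 to 113314126, GRCm38) was at 3.38, 2.45, 3.1, 2.28 and 2.31 TPM in Control + rFibcd1 replicates 1 to 5 and at 11.1, 16.7, 8.27 and 9.42 TPM in LLC + rFibcd1 replicates 1 to 4. All 4 mice with tumors lay above all 5 without, and the group means stood 4.21-fold apart. Its log2 change was 1.71 ± 0.24 (SE), with an adjusted p of 0.00182. Clock, its partner, read 1.98 to 3.31 TPM in Control + rFibcd1 and 3.62 to 6.16 TPM in LLC + rFibcd1, a log2 change of 0.56 ± 0.13 (adjusted p = 0.0193), which did not pass without LLC + rFibcd1 replicate 2 (adjusted p = 0.063). Bhlhe40, a repressor induced by the clock, was the remaining gene that rose (0.56 ± 0.16, adjusted p = 0.042), and it passed in 5 of 17 leave-one-out fits.

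The output factor Dbp (chromosome 7, 45705088 to 45710203) was at 129, 126, 106, 188 and 169 TPM in Control + rFibcd1 and at 73.4, 47, 70.1 and 70.3 TPM in LLC + rFibcd1. Every mouse with a tumor was below every mouse without, and the log2 change was -1.12 ± 0.17 (adjusted p = 0.00239). Hlf ranged from 5.23 to 8.89 TPM without and from 3.01 to 3.48 TPM with a tumor (-0.97 ± 0.14, adjusted p = 0.00183). Tef, the third of these factors, ranged from 67 to 83.8 TPM and from 32.2 to 47.5 TPM in the same order (-0.81 ± 0.11, adjusted p = 0.00183). The groups overlapped for none of the 3 genes.

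Period genes fell with them. Per3 (chromosome 4, 151003652 to 151044665) was at 11.3, 12.8, 10.1, 13.6 and 14.1 TPM in Control + rFibcd1 and at 6.04, 3.34, 6.81 and 5.63 TPM in LLC + rFibcd1 (log2 change -1.08 ± 0.18, adjusted p = 0.0034). Per2 (chromosome 1, 91415982 to 91459324) was at 12.3, 13.9, 18.4, 12.8 and 15.2 TPM against 3.48, 2.49, 7.03 and 6.58 TPM. In both genes each tumor-bearing mouse was lower than each tumor-free one. The log2 change of Per2 was -1.47 ± 0.33 (adjusted p = 0.0146), with an adjusted p of 0.0557 without LLC + rFibcd1 replicate 2 and of 0.0934 without Control + rFibcd1 replicates 2 and 3. Per1 did not pass (-0.53 ± 0.29, adjusted p = 0.238).

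Ciart, a repressor of CLOCK and BMAL1, fell by 1.2 ± 0.3 on the log2 scale (adjusted p = 0.0258), from 5.66 to 11.8 TPM in Control + rFibcd1 to between 1.66 and 4.54 TPM in LLC + rFibcd1. The call was lost without Control + rFibcd1 replicate 4 (adjusted p = 0.065) or 5 (0.0538) and without LLC + rFibcd1 replicate 2 (0.0925) or 3 (0.0583). Nr1d2 fell by 0.5 ± 0.1 (adjusted p = 0.0109, and 0.0601 without Control + rFibcd1 replicates 2 and 3), while Nr1d1, at means ± SD of 69 ± 12.3 TPM (n = 5) and 104 ± 26.8 TPM (n = 4), did not pass (adjusted p = 0.152). LLC + rFibcd1 replicate 2 had the highest Arntl and Clock and the lowest Dbp, Hlf, Tef, Per2, Per3 and Ciart of its group. The sources used here give no hour of dissection for any mouse.

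The loop is wired through short elements near the start site, and the promoters of 4 clock genes are shown. These genes were picked because a window of theirs holds such an element. CLOCK and BMAL1 bind the E-box, DBP, HLF and TEF bind the D-box, and the Nr1d products share the ROR element with the ROR receptors. Sequences are RefSeq promoter windows on GRCm38.p6, 250 bases before to 50 bases after the annotated start, printed 5′ to 3′ on the strand of the gene. Capitals mark CACGTG (the E-box, in Ciart and Tef), TTATGTAA or its complement TTACATAA (the D-box, in Per3) and AGGTCA or its complement TGACCT (the core of the ROR element, in Arntl).
Arntl: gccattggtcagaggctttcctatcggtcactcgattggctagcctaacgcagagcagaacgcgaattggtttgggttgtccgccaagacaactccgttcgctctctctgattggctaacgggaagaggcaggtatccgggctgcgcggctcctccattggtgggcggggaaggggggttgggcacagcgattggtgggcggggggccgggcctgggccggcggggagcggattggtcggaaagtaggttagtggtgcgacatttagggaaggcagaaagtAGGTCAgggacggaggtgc
Ciart: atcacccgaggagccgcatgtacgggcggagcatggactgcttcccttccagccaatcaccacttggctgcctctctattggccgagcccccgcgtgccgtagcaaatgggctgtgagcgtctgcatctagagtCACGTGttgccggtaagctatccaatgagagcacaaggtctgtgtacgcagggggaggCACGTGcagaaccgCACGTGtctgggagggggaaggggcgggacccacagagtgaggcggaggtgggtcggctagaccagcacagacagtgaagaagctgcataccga
Per3: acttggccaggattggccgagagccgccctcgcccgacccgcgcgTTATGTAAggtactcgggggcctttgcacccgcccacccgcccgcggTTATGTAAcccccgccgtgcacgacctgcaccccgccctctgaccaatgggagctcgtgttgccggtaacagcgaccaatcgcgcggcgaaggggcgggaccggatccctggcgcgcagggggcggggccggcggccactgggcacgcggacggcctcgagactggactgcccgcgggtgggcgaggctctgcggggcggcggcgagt
Tef: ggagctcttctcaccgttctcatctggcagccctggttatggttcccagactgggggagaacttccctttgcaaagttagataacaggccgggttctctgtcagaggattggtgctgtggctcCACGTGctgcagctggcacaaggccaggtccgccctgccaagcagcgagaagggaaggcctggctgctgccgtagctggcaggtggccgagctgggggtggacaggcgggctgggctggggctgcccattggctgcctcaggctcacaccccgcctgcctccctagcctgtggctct
The table holds 2 windows for Arntl, for 2 annotated starts, both on the plus strand. The one shown is chr7:113207261-113207560, with 1 match that begins at base 32 after the start, and the other, chr7:113207215-113207514, holds no ROR core. Ciart is chr3:95882179-95882478 on the minus strand, with 3 matches from position -116 to position -44 relative to the start, and Per3 is chr4:151044616-151044915 on the minus strand, with 2 matches at -205 and -158. Tef also has 2 windows on the plus strand, of which chr15:81802423-81802722 is shown, with 1 match at -127, and chr15:81811164-81811463 has 1 match at -138. Of the 18 clock genes measured, 15 matched the table by symbol, with 20 windows in all.

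Searched on both strands, the E-box letters were in 7.15% of all 32851 windows and in 6 of the 20 clock windows. Counted by gene, they were in at least 1 window of 11.7% of the 9875 tested genes with a window and of 5 of the 15 clock genes (Bhlhe41, Ciart, Cry1, Per1 and Tef). D-box letters were in 0.938% of all windows and 1 of the 20, and by gene in 0.709% and 1 of the 15, Per3. The ROR core was in 16.3% of all windows and 5 of the 20, and by gene in 15.6% and 5 of the 15, Arntl, Clock, Nfil3, Nr1d2 and Per1. Of the 6 clock genes called lower that had a window, 2 held the E-box letters, 1 the D-box letters and 1 the ROR core. The windows of Dbp and Hlf held none of these letters. A match describes these letters in this window and is not a measurement of binding.

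**Figure D1:**
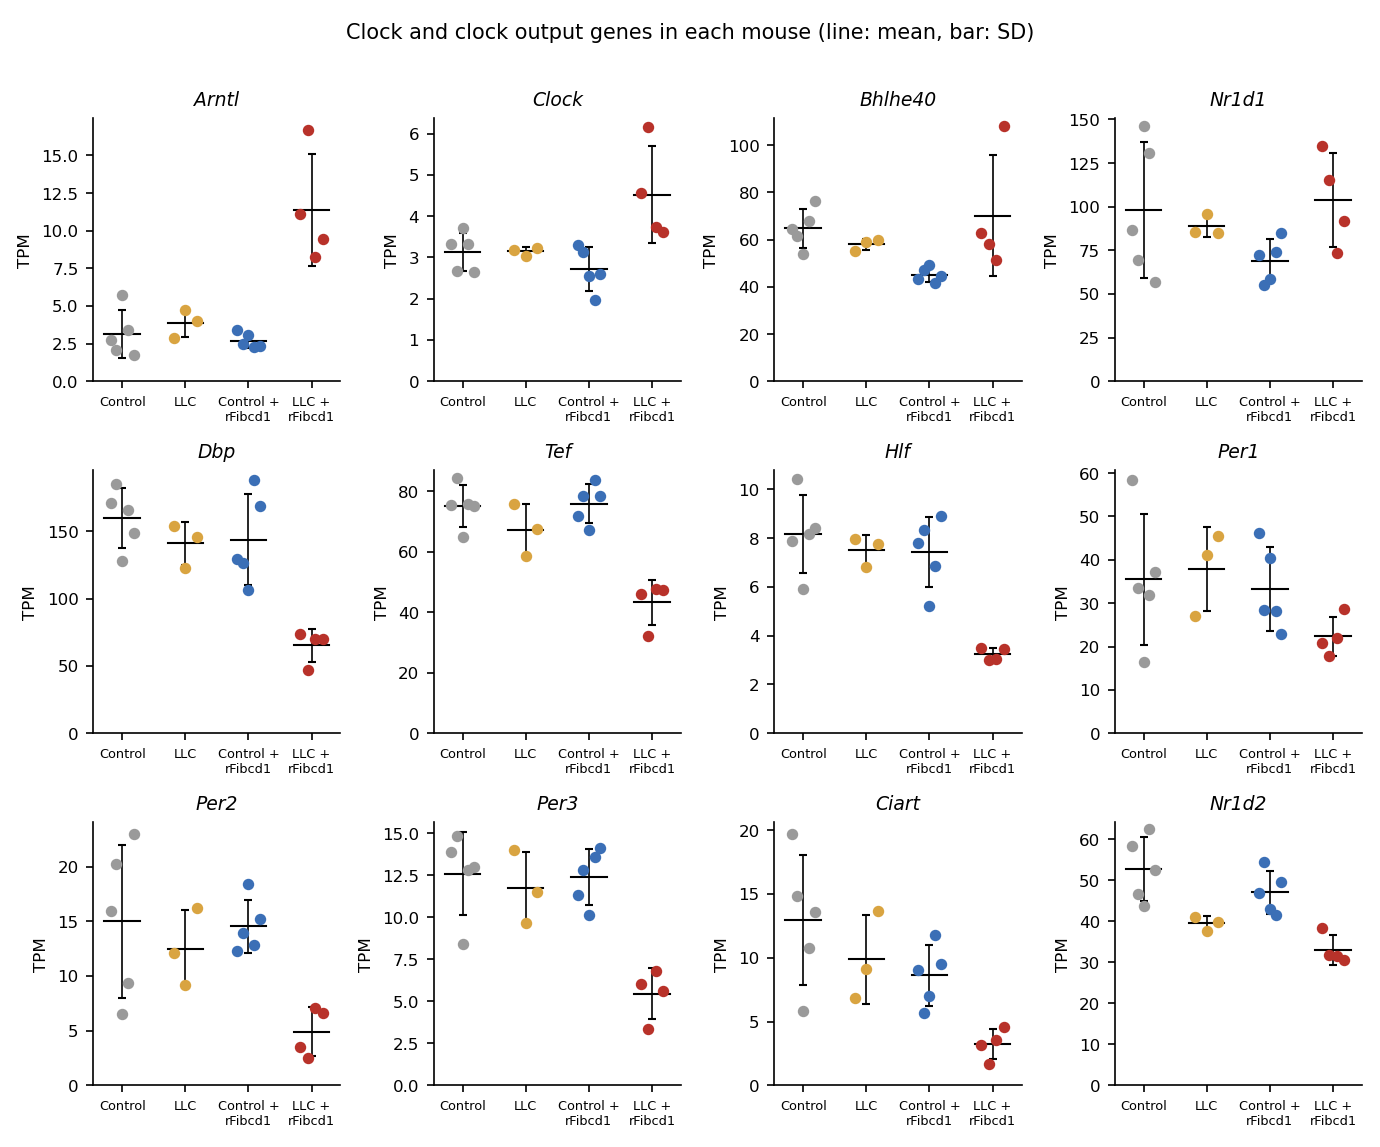
TPM (linear axes, which differ between panels) of 12 clock and output genes in the 4 groups, with a point for each mouse, a line at the group mean and a bar of 1 SD. Arntl lies between 8.27 and 16.7 TPM in the 4 LLC + rFibcd1 mice and at 3.38 TPM or less in the 5 Control + rFibcd1 mice, and Dbp, Hlf, Tef, Per2 and Per3 lie lower in LLC + rFibcd1 than in Control + rFibcd1 without overlap.

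Mock-injected mice differed less in these genes. There, Arntl had a log2 change of 0.29 ± 0.26 (adjusted p = 0.382) and Dbp one of -0.17 ± 0.18 (adjusted p = 0.47), and of the 18 genes 1 passed, Nr1d2, which was lower. The difference between the tumor effects was tested as an interaction. At an unadjusted p under 0.05, 9 of 18 clock genes differed, where 8.58% of all genes did. Of these, 3 rose more under rFibcd1 (a positive interaction, as in 5.98% of all genes) and 6 were lowered more (a negative one, as in 2.6% of all genes). By limma none had an adjusted p under 0.05, and Hlf had the smallest p among those named here (interaction -0.88 ± 0.2, unadjusted p = 0.000546, limma adjusted p = 0.14).

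Several contractile genes of the fiber also fell, as did the gene for myostatin. Actc1, cardiac alpha-actin that skeletal muscle also makes during growth and repair (chromosome 2, 114047282 to 114053548), was at 438, 417, 254, 467 and 677 TPM in Control + rFibcd1 and at 93.6, 93.3, 161 and 122 TPM in LLC + rFibcd1. Groups did not overlap, and the log2 change was -1.90 ± 0.29 (adjusted p = 0.00285). Mylk4, a kinase of the myosin light chain kinase family, was at 113, 153, 145, 161 and 113 TPM against 32.8, 20.8, 38.6 and 62.3 TPM (-1.89 ± 0.28, adjusted p = 0.00211). No mouse with a tumor reached the lowest mouse without one.

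Mstn encodes myostatin, a secreted inhibitor of muscle growth (chromosome 1, 53061640 to 53068079). Its levels were 21.1, 21.9, 28.2, 37.3 and 36.4 TPM in Control + rFibcd1 and 8.3, 6.15, 8.26 and 13.6 TPM in LLC + rFibcd1, again without overlap (-1.58 ± 0.21, adjusted p = 0.0011). Fst, which encodes the myostatin-binding protein follistatin, rose (0.44 ± 0.10, adjusted p = 0.0179), though not without LLC + rFibcd1 replicate 2 (adjusted p = 0.062). In the list of 18 myostatin and activin genes, 17 were measured and these 2 were those that passed. Pik3r1, a regulatory subunit of the insulin-activated lipid kinase, fell (-0.53 ± 0.12, adjusted p = 0.014) and Akt2, a kinase below it, rose (0.22 ± 0.04, adjusted p = 0.00768), but Akt2 did not pass under the 3 other scalings.

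Fast-fiber genes tended to be lower, with 6 of 13 called lower (1.04% of all genes were), 0 called higher and a median log2 change of -0.39. Mybpc2, fast myosin-binding protein C, was at 582, 447, 543, 562 and 443.9 TPM in Control + rFibcd1 and at 302, 297, 271 and 388 TPM in LLC + rFibcd1. All mice with tumors were below all mice without (-0.71 ± 0.15, adjusted p = 0.00991). The fast light chains Mylpf (-0.44 ± 0.07, adjusted p = 0.00316) and Myl1 (-0.43 ± 0.07, adjusted p = 0.00329) fell without overlap, as did Tpm1, a tropomyosin counted with the structure genes (-0.36 ± 0.06, adjusted p = 0.00331). Parvalbumin, Pvalb, was at the threshold (-0.77 ± 0.23, adjusted p = 0.0499) and passed in 3 of 17 leave-one-out fits.

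Fast myosin heavy chains themselves did not pass. Myh4, the IIb heavy chain, ranged from 664 to 1804 TPM and from 404 to 1177 TPM (adjusted p = 0.394), and Actn3, the fast-fiber actinin, from 176 to 477 TPM and from 119 to 268 TPM (adjusted p = 0.126); both were chosen after their values were seen. Of 10 slow-fiber genes 1 rose and 0 fell, with a list median of 0.09 that was below 0 after median-ratio scaling (-0.05) and quantile normalization (-0.00157) and lay between -0.0274 (without LLC + rFibcd1 replicate 1) and 0.205 (without replicate 2 of that group) when single mice were left out. That gene was Atp2a2, the slow-fiber calcium pump (0.58 ± 0.14, adjusted p = 0.0247), which did not pass under any of the 3 other scalings or in 5 of 17 leave-one-out fits (without Control + rFibcd1 replicates 2 or 5 or LLC + rFibcd1 replicates 1, 3 or 4, with a largest adjusted p of 0.0865). Summed over the 13 fast-fiber genes, Control + rFibcd1 mice had 48203 to 54741 TPM and LLC + rFibcd1 mice 41293 to 47357 TPM. Without Control + rFibcd1 replicates 2 and 3, 3 of the 13 fell.

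Sarcolipin, Sln, a small inhibitor of the calcium pump (chromosome 9, 53850164 to 53854560), went the other way. It was at 651, 737, 711, 883 and 827 TPM in Control + rFibcd1 and at 1508, 1239, 1538 and 1060 TPM in LLC + rFibcd1, without overlap. The log2 change was 0.80 ± 0.14 (adjusted p = 0.00522), with an adjusted p of 0.056 after median-ratio scaling. In mock-injected mice Sln was lower with a tumor (-0.46 ± 0.16, adjusted p = 0.0344). The difference of 1.26 ± 0.21 between both tumor effects had an unadjusted p of 2.8e-05 and an adjusted p of 0.0588.

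In the list of 17 calcium-handling genes, 3 rose and 4 fell, beside 7.02% and 1.04% of all genes. Without Control + rFibcd1 replicates 2 and 3 there were 1 and 0. Sln, Atp2a2 and the channel subunit Cacng1, which passed in 8 of 17 leave-one-out fits, were the 3 that rose, and Casq1, the calcium-storing calsequestrin of fast fibers, fell (-0.38 ± 0.08, adjusted p = 0.0128). Among 20 myofiber structure genes 0 rose and 4 fell, including the titin cap Tcap (-0.39 ± 0.09, adjusted p = 0.013) and Myoz1, a Z-disc protein of fast fibers (-0.37 ± 0.07, adjusted p = 0.0089). At the neuromuscular junction, Colq, the tail that anchors acetylcholinesterase, rose (not after quantile normalization) from 6.07 to 8.17 TPM to between 9.43 and 12.7 TPM (0.71 ± 0.12, adjusted p = 0.00363). Dok7, the adaptor of the receptor kinase MuSK, fell from between 12 and 16.5 TPM to between 9.47 and 10.9 TPM (-0.46 ± 0.09, adjusted p = 0.0087). These were the 2 of 16 denervation and junction genes that passed. Of 11 satellite cell and myogenic genes 0 passed, and 3 were higher at an unadjusted p under 0.05, a share close to the 24.9% of all genes.

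Others among the 12 genes with the greatest falls lie outside these lists. Nanp, a phosphatase of sialic acid synthesis, was at 1.56 to 2.58 TPM in Control + rFibcd1 and at 0.288, 1.18, 0 and 0.448 TPM in LLC + rFibcd1 (-1.13 ± 0.28, adjusted p = 0.0258), and failed without LLC + rFibcd1 replicate 3 (0.0952) or Control + rFibcd1 replicates 2 (0.0521) or 3 (0.0565). Cntfr, the receptor of ciliary neurotrophic factor, fell by 1.10 ± 0.26 on the log2 scale (adjusted p = 0.0193, and 0.0662 without LLC + rFibcd1 replicate 2). Mid1ip1, a regulator of fatty acid synthesis, fell by 0.92 ± 0.16 (adjusted p = 0.00408) and Mdga1, a membrane-anchored adhesion protein, by 0.89 ± 0.15 (adjusted p = 0.00378). Both of the latter separated the groups and passed in all 17 leave-one-out fits.

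**Figure D2:**
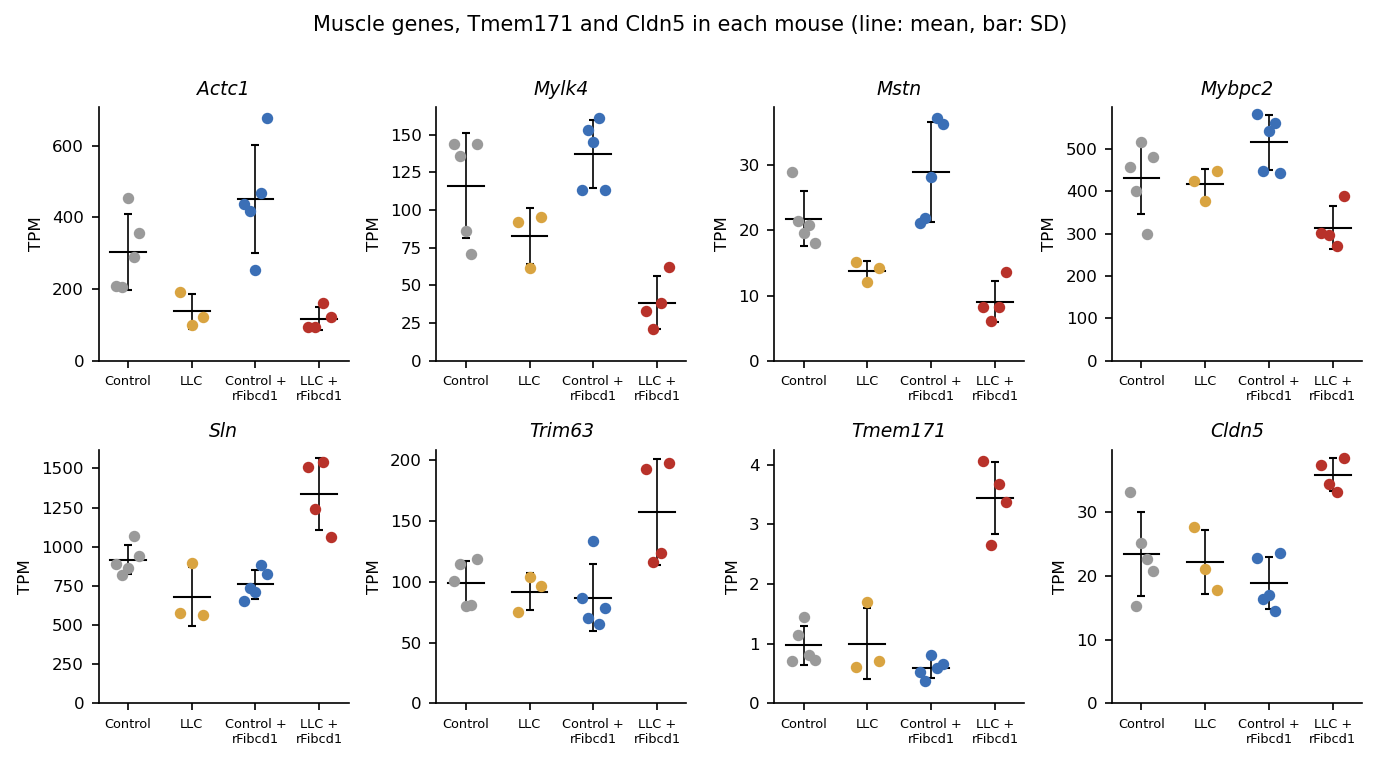
TPM (linear axes, which differ between panels) of Actc1, Mylk4, Mstn, Mybpc2, Sln, Trim63, Tmem171 and Cldn5 in the 4 groups, with a point for each mouse, a line at the group mean and a bar of 1 SD. The 4 LLC + rFibcd1 mice lie at 161 TPM or less for Actc1 and at 13.6 TPM or less for Mstn, under every Control + rFibcd1 mouse, and at 1060 TPM or more for Sln, over every Control + rFibcd1 mouse.

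Some genes of protein breakdown rose in small steps. Trim63, which encodes the ubiquitin ligase MuRF1, was at 86.9, 70.5, 134, 65.1 and 78.3 TPM in Control + rFibcd1 and at 193, 116, 124 and 198 TPM in LLC + rFibcd1. Control + rFibcd1 replicate 3 lay within the range of mice with tumors, and the log2 change was 0.86 ± 0.22 (adjusted p = 0.0272). Fbxo32, the ligase atrogin-1, was at 79.6, 78.7, 91.5, 73.1 and 61.5 TPM against 174, 96.3, 109.6 and 113 TPM, without overlap (0.65 ± 0.16, adjusted p = 0.0244). With Stub1 these were the 3 of 21 atrophy ligases that rose (14.3% of the list, beside 7.02% of all genes), 0 fell, and 0 of the 3 passed under the other scalings. Leaving out single mice gave 1 to 7 of the 21. The list median of 0.06 was 0.0309 without Control + rFibcd1 replicate 4 and turned negative after median-ratio scaling and quantile normalization (-0.06 and -0.05).

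Both ligases were sensitive to single mice. Trim63 lost its call without Control + rFibcd1 replicates 2 (adjusted p = 0.0669), 4 (0.0677) or 5 (0.0551) and without LLC + rFibcd1 replicates 1 (0.0591) or 4 (0.0614). Fbxo32 lost it without Control + rFibcd1 replicates 4 (0.0553) or 5 (0.0554), and its adjusted p was 0.0585 without replicates 2 and 3 of that group. In mock-injected mice their log2 changes were -0.10 ± 0.24 for Trim63 and -0.04 ± 0.17 for Fbxo32, and the interactions had unadjusted p of 0.00935 and 0.0106 with adjusted p of 0.319 and 0.331.

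Of 31 constitutive proteasome subunits 16 rose (7.02% of all genes did) and 0 fell, and in 22 the groups did not overlap, all of them higher (7.43% of all genes). Their summed level was 2491 to 2541 TPM in the 5 Control + rFibcd1 mice and 2643 to 2857 TPM in the 4 LLC + rFibcd1 mice. Psmb1, a catalytic-core subunit, was at 153, 145, 146, 147 and 147 TPM against 191, 172, 198 and 169 TPM (0.30 ± 0.05, adjusted p = 0.00409). The median log2 change of the list, 0.13, was close to the 0.11 of all genes, and 0 subunits passed after median-ratio scaling or quantile normalization. Without Control + rFibcd1 replicates 2 and 3, 3 of the 31 rose, and leaving out single mice gave 5 to 18.

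Autophagy genes showed 4 of 18 higher, beside 7.02% of all genes, and 0 lower. They were Gabarap (0.32 ± 0.05, adjusted p = 0.00278) and Map1lc3b (0.25 ± 0.05, adjusted p = 0.00677), both coats of the autophagosome membrane, the lysosomal membrane protein Lamp1 (0.22 ± 0.03, adjusted p = 0.00207) and the mitophagy receptor Bnip3 (0.35 ± 0.09, adjusted p = 0.0368). Bnip3 did not pass without Control + rFibcd1 replicates 2, 4 or 5 or LLC + rFibcd1 replicate 3 (largest adjusted p = 0.086). After median-ratio scaling 0 of the 18 passed, and leaving out single mice gave 3 to 10. Among 15 cathepsins and Napsa 2 rose, beside 7.02% of all genes, Ctsl (0.33 ± 0.08, adjusted p = 0.0184) and Ctsa (0.26 ± 0.07, adjusted p = 0.0342). Neither passed without LLC + rFibcd1 replicate 2 (adjusted p = 0.065 and 0.111) or under the other scalings, and Ctsa passed in 11 of 17 leave-one-out fits. Leaving out single mice gave 0 to 7 of the 15. Cdkn1a, the cell cycle inhibitor p21 and a gene that glucocorticoids raise in muscle, rose by 1.29 ± 0.32 (adjusted p = 0.0233) from 8.98 to 34.7 TPM to between 30.7 and 47.5 TPM, and was the 1 of 20 glucocorticoid receptor targets that passed. Cdkn1a did not pass without Control + rFibcd1 replicates 2, 4 or 5 or LLC + rFibcd1 replicate 2 (largest adjusted p = 0.0665), and the median of that list was -0.07, or -0.182 to 0.0313 without Control + rFibcd1 replicates 4 and 3 in turn.

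Some myeloid genes rose. Chil3, a chitinase-like protein secreted by alternatively activated macrophages and neutrophils (chromosome 3, 106147554 to 106167564), was at 4.21, 0.144, 0.908, 0.252 and 0.52 TPM in Control + rFibcd1 and at 11.4, 9.61, 15.7 and 5.02 TPM in LLC + rFibcd1. No value overlapped, and the log2 change of 2.54 ± 0.38 (adjusted p = 0.00242) headed the called genes without overlap. Ccl8, a chemokine for monocytes, was at 3.72, 2, 0.0783, 1.69 and 2.37 TPM against 5.65, 17.2, 20.3 and 8.67 TPM (2.23 ± 0.48, adjusted p = 0.0126, and 0.0789 without Control + rFibcd1 replicates 2 and 3). Csf2rb2, a beta chain of the interleukin-3 receptor, was at 2.56, 0.962, 1.28, 0.536 and 0.894 TPM against 4.94, 8.18, 9.82 and 3.39 TPM (1.73 ± 0.28, adjusted p = 0.00326). Every mouse with a tumor exceeded every mouse without in both genes. Chil3, Csf2rb2 and Ear2 have close paralogs, between which the authors' counting could divide reads.

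Interleukin-1 beta, Il1b, an inflammatory cytokine, was at 0.955, 0.144, 1.09, 0.157 and 0.233 TPM in Control + rFibcd1 and at 2.37, 4.5, 1.71 and 2.38 TPM in LLC + rFibcd1. The groups were separate, with a log2 change of 1.30 ± 0.25 (adjusted p = 0.00683). Il4ra, the receptor chain shared by interleukins 4 and 13, was at 7.71, 4.53, 5.22, 4.14 and 5.39 TPM against 10.7, 12.7, 16 and 9.17 TPM, also separate (1.04 ± 0.17, adjusted p = 0.00316). Retnla, a secreted product of alternatively activated macrophages, was at 177, 66.1, 36.7, 31 and 63 TPM against 169, 264, 233 and 240.1 TPM. Only Control + rFibcd1 replicate 1 reached the range of the mice with tumors (1.86 ± 0.39, adjusted p = 0.0109, and 0.0788 without Control + rFibcd1 replicates 2 and 3).

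By list, 4 of the 9 measured among 11 alternatively activated macrophage genes rose and 0 fell. Chil3, Retnla, Il4ra and the lectin Mgl2 were these 4, and Mgl2 passed in 11 of 17 leave-one-out fits. Chil3 was measured only through its level in mice with tumors, since it did not reach 1 TPM in 3 of the 10 tumor-free mice. Of the 8 genes that did so 3 rose, beside 7.02% of all genes, and their median log2 change was 0.625. Of 7 beta-common and colony-stimulating receptors 4 rose, Csf2rb2, Csf2rb, Il3ra and Csf3r, beside 7.02% of all genes, with a median of 0.77. Among these 7 genes 1 to 6 passed when single mice were left out, and Il5ra was measured only through mice with tumors. Csf3r passed in 4 of 17 leave-one-out fits, Il3ra in 14 and Csf2rb in 15. Of 18 general monocyte and macrophage genes only Cx3cr1 passed, also measured only through mice with tumors (0.68 ± 0.18, adjusted p = 0.035), and it did so in 12 of 17 leave-one-out fits. All 18 had a log2 change above 0, with a median of 0.44, and 0 to 7 of them passed when single mice were left out. The median was 0.19 without LLC + rFibcd1 replicate 2 and 0.728 without Control + rFibcd1 replicate 1. In bulk tissue, more cells of a type and more RNA per cell cannot be told apart.

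Of 20 neutrophil genes 10 were measured, and of these 6 rose and 0 fell. Only 6 of the 10 would have been measured from the 10 tumor-free mice, and 3 of those 6 rose. Retnlg, Cxcr2 and Stfa2l1 rose but entered only through mice with tumors, so the share among the measured genes is no result about the list. S100a9, a calprotectin subunit, was at 14.4, 2.11, 46.3, 1.29 and 2.94 TPM in Control + rFibcd1 and at 53.7, 125, 40.8 and 34.2 TPM in LLC + rFibcd1. Replicate 3 of Control + rFibcd1 fell inside the range of the mice with tumors. The log2 change was 2.95 ± 0.78 (adjusted p = 0.0331), 11 of 17 leave-one-out fits passed, and the largest adjusted p was 0.11 (without LLC + rFibcd1 replicate 2). Each fit in which S100a9 failed left out 1 of the 9 compared mice. Stfa2l1, a stefin of neutrophils, separated the groups at 0.0905 to 0.29 TPM and 0.469 to 2.7 TPM (0.96 ± 0.20, adjusted p = 0.00992). S100a8, Retnlg, Csf3r and the chemokine receptor Cxcr2, which passed in 11, 3, 4 and 16 of 17 leave-one-out fits, were the others that rose. The whole list summed to 46 to 325 TPM without and 177 to 597 TPM with a tumor, none of the 20 genes was at 0 in all 9 mice, and 13 had a median under 1 TPM. After quantile normalization 0 of the 10 passed.

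Single receptor and chemokine genes rose as well. Ackr1, the atypical chemokine receptor of venules (chromosome 1, 173331886 to 173333750), was at 4.03, 2.93, 2.74, 1.39 and 2.24 TPM in Control + rFibcd1 and at 6.49, 12.7, 9.83 and 4.69 TPM in LLC + rFibcd1. Groups did not overlap (1.32 ± 0.24, adjusted p = 0.00617, and 0.0518 when only the 9 mice were fitted). Of 23 chemokine ligands 3 rose, beside 7.02% of all genes, and 2 to 7 did when single mice were left out. These were Ccl8, Ccl2 and, with all mice fitted, the stromal chemokine Cxcl12, which went from 41.5 to 60.1 TPM to between 64.3 and 104 TPM (0.71 ± 0.12, adjusted p = 0.00362). Osmr, the receptor of oncostatin M, rose without overlap (0.55 ± 0.10, adjusted p = 0.0066), and so did Stat3, the transcription factor below it (0.37 ± 0.08, adjusted p = 0.0159), which did not pass without LLC + rFibcd1 replicate 2 (0.0608) or after median-ratio scaling or quantile normalization. Ccl2 passed in 4 of 17 leave-one-out fits. Inflammatory cytokines and receptors rose in 5 of the 13 measured among 21 genes, Il1b (measured only through mice with tumors), Osmr, Tnfrsf1a, Il1r1 and Tnfrsf1b, the last 3 of them receptors of tumor necrosis factor and interleukin 1. Il1r1 passed in 12 and Tnfrsf1b in 11 of 17 leave-one-out fits. Leaving out single mice gave 2 to 6 of the 13 cytokine and receptor genes. Of 13 STAT3 feedback genes 3 rose (Stat3, Il4ra and Bcl3), and of 6 venule adhesion genes 2 (Ackr1 and Plvap, a diaphragm protein of vessel fenestrae). Leaving out single mice gave 1 to 6 of the 13 and 1 to 5 of the 6.

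Medians of the lymphoid lists were above 0, but no gene of them passed with all mice fitted, and at most 3 of a list did when single mice were left out. The median log2 change was 1.07 for 12 B cell genes, 0.68 for 14 T cell genes, 0.54 for 10 plasma cell genes, 0.50 for 3 natural killer genes, 1.95 for 11 immunoglobulin constant regions, 0.55 for 11 MHC class I and immunoproteasome genes and 0.89 for 10 MHC class II genes, and 0 genes of these lists had an adjusted p under 0.05. Without LLC + rFibcd1 replicate 3 these medians were 0.472, 0.19, 0.314, 0.223, 1.25, 0.3 and 0.496 in the same order. Some members were measured only through mice with tumors, which can favor a higher value, namely 6 of the 14 T cell genes, 2 of the 10 plasma cell genes, 2 of the 3 natural killer genes and 1 each of the immunoglobulin and MHC class I lists. Over the 8 T cell and 8 plasma cell genes that reached 1 TPM in at least 3 of the 10 tumor-free mice, the medians were 0.782 and 0.76, no lower than with those members. Cd79a, a chain of the B cell receptor chosen after its values were seen, was at 55.4, 5.55, 1.21, 2.44 and 10.2 TPM in Control + rFibcd1 and at 7.47, 52.6, 110.4 and 9.39 TPM in LLC + rFibcd1. The spread within each group exceeded the difference between them (1.76 ± 1.08, adjusted p = 0.283). Control + rFibcd1 replicate 1, high in B cell genes, was also the highest of its group for Chil3, Retnla and Csf2rb. With the B cell list as a covariate the adjusted count was 633 genes, and 3 of the 9 alternatively activated macrophage genes, 3 of the 7 receptors and 2 of the 10 neutrophil genes passed.

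Interferon-stimulated genes passed in 0 of 18, but in 6 of 18 without Control + rFibcd1 replicate 1, with a median log2 change of 0.17 that was -0.00931 after quantile normalization and 0.0587 without LLC + rFibcd1 replicate 3. Ifitm1, a membrane protein that interferon induces and granulocytes also make, rose from 2.8 to 5.6 TPM to between 6.31 and 18.4 TPM (1.18 ± 0.25, adjusted p = 0.0105, and 0.0727 without Control + rFibcd1 replicates 2 and 3). None of 17 complement genes passed (up to 4 without single mice), nor did any of 18 proliferation genes (up to 5), 7 of which were measured only through mice with tumors. Of the other 11, 5 were higher at an unadjusted p under 0.05, beside 24.9% of all genes, and their median log2 change was 0.42.

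**Figure D3:**
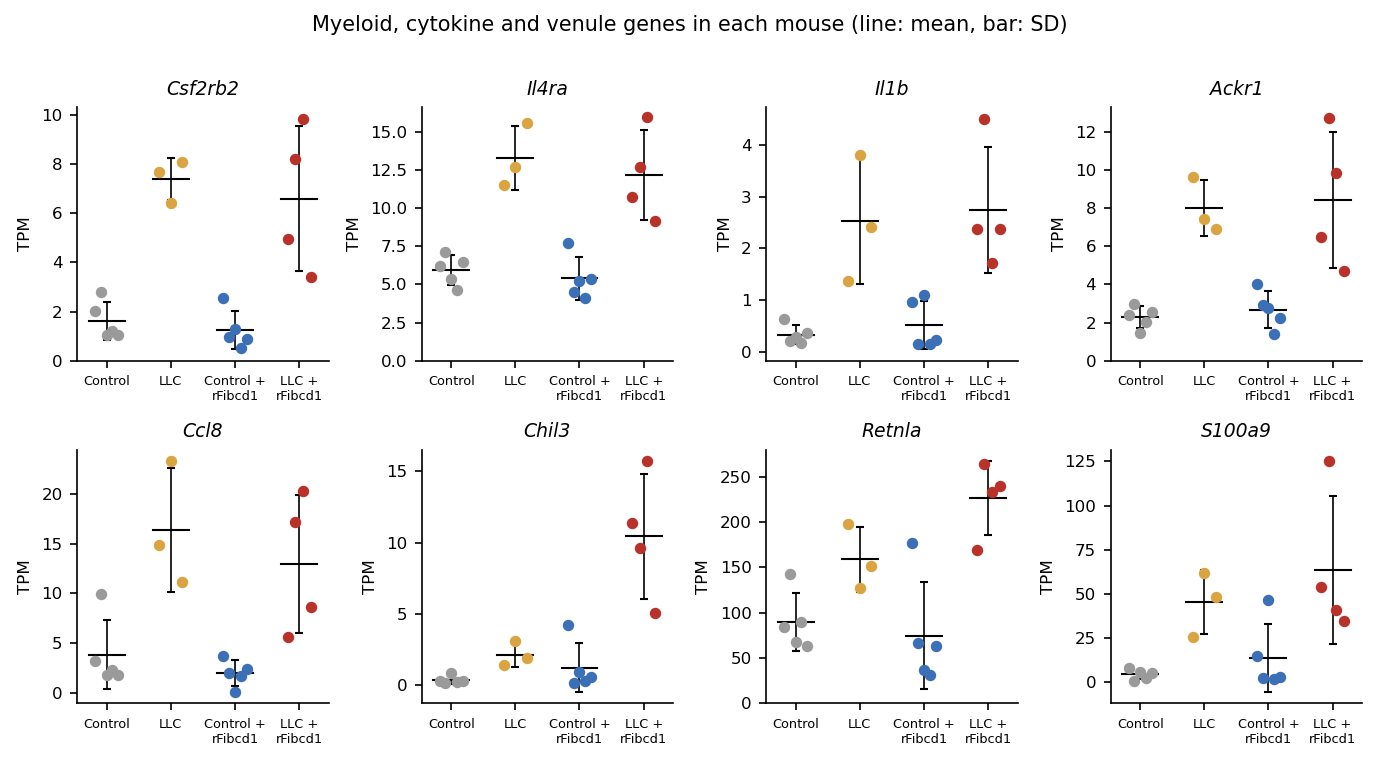
TPM (linear axes, which differ between panels) of Csf2rb2, Il4ra, Il1b, Ackr1, Ccl8, Chil3, Retnla and S100a9 in the 4 groups, with a point for each mouse, a line at the group mean and a bar of 1 SD. The 4 LLC + rFibcd1 mice lie above all 5 Control + rFibcd1 mice for the first 6 genes, while S100a9 overlaps through Control + rFibcd1 replicate 3 at 46.3 TPM and Retnla through replicate 1 at 177 TPM.

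Endothelial genes rose as a set of moderate changes. Of 13 genes of the vessel lining 9 rose (7.02% of all genes did) and 0 fell, with a median log2 change of 0.43 that was 0.29 after median-ratio scaling and 0.33 after quantile normalization. Their sum was 341 to 392 TPM in Control + rFibcd1 and 467 to 510 TPM in LLC + rFibcd1, without overlap. Pecam1, the adhesion molecule CD31 (chromosome 11, 106654217 to 106750628), was at 49.4, 51.6, 46.7, 47.9 and 50.5 TPM against 65.7, 74.7, 75.1 and 63.3 TPM (0.49 ± 0.06, adjusted p = 0.000878). Cldn5, the tight junction claudin of endothelium, was at 22.7, 16.4, 16.9, 14.5 and 23.6 TPM against 37.4, 34.3, 33.1 and 38.5 TPM (0.92 ± 0.19, adjusted p = 0.0102, and 0.083 without Control + rFibcd1 replicates 2 and 3). Tek, the angiopoietin receptor, was chosen after its values were seen and rose from 12.4 to 13.3 TPM to between 15.5 and 20 TPM (0.47 ± 0.06, adjusted p = 0.0011). All 3 separated the groups.

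Vwf, which encodes von Willebrand factor, rose by 0.65 ± 0.12 (adjusted p = 0.00669) and Eng, the coreceptor endoglin, by 0.57 ± 0.14 (adjusted p = 0.0216). Eng did not pass after median-ratio scaling or quantile normalization, nor without LLC + rFibcd1 replicate 3 (adjusted p = 0.0791) or Control + rFibcd1 replicates 2 (0.0561) or 4 (0.0541). Without Control + rFibcd1 replicates 2 and 3, 4 of the 13 rose. In mock-injected mice 4 of the 13 rose, a share close to the 29.7% of all genes there, with a median log2 change of 0.13. The interaction had an unadjusted p under 0.05 in 6 of 13 genes, each larger under rFibcd1, beside 5.98% of all genes. Cldn5 was one of them (0.97 ± 0.28, limma adjusted p = 0.217). Its means ± SD were 23.4 ± 6.54 TPM in the 5 Control and 22.1 ± 5.02 TPM in the 3 LLC mice.

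The basement membrane collagens Col4a1 and Col4a2, which share a promoter region on chromosome 8, rose together. Col4a2 was at 43.6, 34, 38.3, 38.7 and 47.8 TPM in Control + rFibcd1 and at 63.1, 69.8, 73.1 and 68.5 TPM in LLC + rFibcd1 (0.75 ± 0.09, adjusted p = 0.000691). Col4a1 changed by 0.65 ± 0.10 (adjusted p = 0.00207), also without overlap. Of 26 collagen and matrix genes 6 rose, beside 7.02% of all genes, and 0 fell. Among those that rose were the crosslinking enzyme Lox (0.75 ± 0.18, adjusted p = 0.0199, and 0.0669 without LLC + rFibcd1 replicate 2) and the membrane protease Mmp14 (0.77 ± 0.2, adjusted p = 0.0319), which passed in 13 of 17 leave-one-out fits. Leaving out single mice gave 2 to 6 of the 26. Fibrillar collagens Col1a1, Col1a2 and Col3a1 did not pass. Of 10 fibroblast genes and 9 pericyte and smooth muscle genes 0 passed, with medians of 0.17 for both lists (fibroblast genes 0.029 without LLC + rFibcd1 replicate 2). Nepn, a small leucine-rich repeat protein (chromosome 10, 52388972 to 52404625), had the smallest adjusted p of all genes, 0.000217. It was at 1.75, 1.37, 1.8, 1.66 and 1.59 TPM against 5.51, 4.51, 6.19 and 4.55 TPM, without overlap (1.23 ± 0.11).

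Of the remaining genes with the greatest rises, Tmem252 was at 0.167 to 1.04 TPM in Control + rFibcd1 and 2.15 to 3.7 TPM in LLC + rFibcd1 (1.29 ± 0.22, adjusted p = 0.00408). Ear2, a ribonuclease of the eosinophil-associated family, went from 1.61 to 6.21 TPM to between 6.51 and 11.5 TPM (1.22 ± 0.26, adjusted p = 0.0111). Spon2, a matrix protein of innate immunity, changed by 1.21 ± 0.23 (adjusted p = 0.00758). Tmem252 and Spon2 were measured only through mice with tumors. Without Control + rFibcd1 replicates 2 and 3, Ear2 and Spon2 had adjusted p of 0.0915 and 0.0633. Erdr1, for which the annotation gives more than one position or none, was at 11.6 to 33.2 TPM and 75 to 111 TPM (2.15 ± 0.57, adjusted p = 0.0346), passed in 11 of 17 leave-one-out fits and did not pass under the other scalings.

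Genes of energy metabolism were read by pathway. Of 18 glycolysis genes 1 rose and 4 fell, beside 7.02% and 1.04% of all genes. Their median log2 change was -0.13 and stayed negative under the other scalings (-0.27 to -0.20). Eno3, the muscle enolase, was at 2025, 1686, 1802, 1999 and 1537 TPM in Control + rFibcd1 and at 1264, 1309, 1248 and 1516 TPM in LLC + rFibcd1, without overlap (-0.44 ± 0.09, adjusted p = 0.00886). Pfkfb1, which controls the activator of phosphofructokinase, fell (-0.51 ± 0.11, adjusted p = 0.0102), as did phosphoglycerate kinase, Pgk1 (-0.25 ± 0.05, adjusted p = 0.00877). Hk1, the hexokinase of many non-muscle cells, rose (0.4 ± 0.1, adjusted p = 0.0277), but not without Control + rFibcd1 replicates 2, 3 or 4 or LLC + rFibcd1 replicates 2 or 3 (adjusted p = 0.0587 to 0.0952). Fatty acid oxidation and PPAR genes passed in 0 of 23, and PGC-1 and mitochondrial biogenesis genes in 0 of 12.

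Few nuclear genes of the respiratory chain passed, and their medians as deposited were near 0, below the 0.11 of all genes. Of 30 genes of complex I 2 rose and 0 fell, with a median log2 change of -0.01, and of 37 genes of complexes II to V 0 passed, with a median of -0.00368. Both medians were lower after median-ratio scaling, at -0.155 and -0.147. The 2 that rose were Ndufa7 (0.15 ± 0.04, adjusted p = 0.0428) and Ndufa2, a small subunit of complex I (chromosome 18, 36742332 to 36744557). Ndufa2 was at 492, 481, 521, 515 and 508 TPM in Control + rFibcd1 and at 558, 536, 553 and 539.6 TPM in LLC + rFibcd1 (0.12 ± 0.03, adjusted p = 0.0331), and after median-ratio scaling its log2 change was -0.02. Ndufa7 had a log2 change of 0.00723 after that scaling. Ndufa2 passed in 12 and Ndufa7 in 5 of 17 leave-one-out fits, and neither passed under the 3 other scalings. Among 13 mitochondrially encoded genes 2 fell, mt-Nd6 (-0.75 ± 0.13, adjusted p = 0.00408) and mt-Nd4l (-0.27 ± 0.05, adjusted p = 0.00776, not past 0.05 after quantile normalization).

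These same nuclear genes were lower with a tumor in mock-injected mice. There, 26 of 30 complex I genes fell and 0 rose (median log2 change -0.18), and 33 of 37 genes of complexes II to V fell (median -0.22), where 6.02% of all genes fell. Tested as an interaction, 25 of 30 and 34 of 37 genes had an unadjusted p under 0.05, all with a larger log2 change under rFibcd1, beside 5.98% of all genes, and none had an adjusted p under 0.05. The counts were 7 and 10 after median-ratio scaling, 19 and 26 after quantile normalization, and 19 and 31 after rescaling without mitochondrially encoded genes. Leaving out single mice gave 16 to 26 and 28 to 35. Genes of 1 complex vary together within a mouse, so the members are not independent readings, and the share of mitochondrially encoded TPM also differed, at 47.1% ± 1.09 in the 5 Control and 42.9% ± 1.53 in the 3 LLC mice (mean ± SD). Its part in these counts was tested only through the rescaling.

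**Figure D4:**
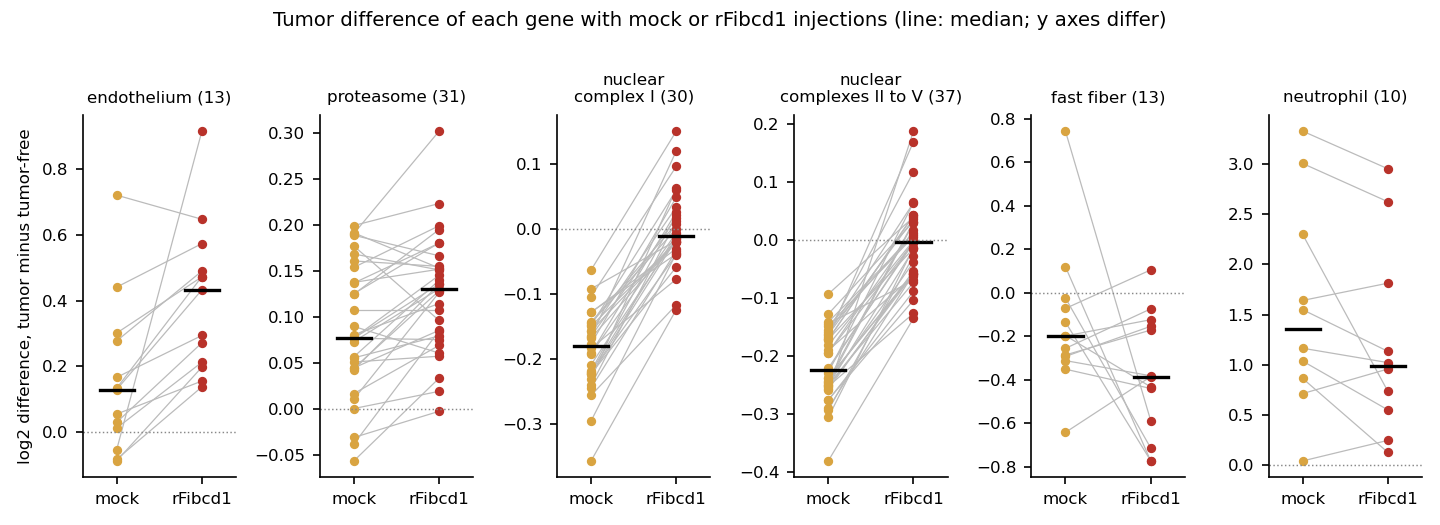
Log2 difference between mice with and without tumors for each gene of 6 lists (endothelium, proteasome, nuclear complex I, nuclear complexes II to V, fast fiber and neutrophil), among mock-injected and among rFibcd1-injected mice, with 1 point per gene and y axes that differ between panels. Complex I and complexes II to V lie lower among mock-injected mice (medians -0.18 and -0.22) than among rFibcd1-injected mice (medians -0.01 and -0.00368), and endothelial genes lie higher among rFibcd1-injected mice (0.43 against 0.13).

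Without Control + rFibcd1 replicates 2 and 3, the genes that rose numbered 2 rather than 4 in the alternatively activated macrophage list, 1 rather than 4 among the beta-common and colony-stimulating receptors, 2 rather than 5 among inflammatory cytokines and receptors, 1 rather than 3 among chemokine ligands, 1 rather than 3 among STAT3 feedback genes and 1 rather than 2 among venule adhesion genes. Collagen and matrix genes had 2 rather than 6 that rose, autophagy genes 3 rather than 4, atrophy ligases 1 rather than 3, cathepsins 0 rather than 2 and complex I genes 0 rather than 2. The genes that fell numbered 2 rather than 4 among myofiber structure genes and 2 rather than 4 in glycolysis.

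Other lists added few calls. Cytosolic ribosomal proteins had 4 of 38 higher and 33 higher at an unadjusted p under 0.05, beside 24.9% of all genes, with a median log2 change of 0.25, and 0 passed after median-ratio scaling or without Control + rFibcd1 replicates 2 and 3. Leaving out single mice gave 2 to 34 of the 38, the highest without Control + rFibcd1 replicate 1. ATF4 and integrated stress genes had 2 of 12 higher, including the stress-induced factor Nupr1 (0.55 ± 0.13, adjusted p = 0.0224, past 0.05 in 12 of 17 leave-one-out fits). Immediate early genes and ERK output genes had 1 each, Ier2 of 19 and the ERK phosphatase Dusp6 of 16 (0.59 ± 0.17 and 0.38 ± 0.11, both with an adjusted p of 0.0429, past 0.05 in 5 and 4 leave-one-out fits). Itga7, the laminin receptor of muscle, was the 1 of 8 fibrinogen-binding integrins and their relatives that rose (0.29 ± 0.06, adjusted p = 0.00707), and it did not pass under the other scalings. Among red cell genes the membrane anion exchanger Slc4a1, measured only through mice with tumors, rose (1.04 ± 0.26, adjusted p = 0.0247) and passed in 12 of 17 leave-one-out fits while the globins did not pass, and the summed level was 3920 to 20832 TPM and 14781 to 20966 TPM. Polyamine genes had 1 of 10 higher, Oaz1, and insulin and FoxO genes had 2 of 19 higher (Akt2 and Igf2r) and 1 lower (Pik3r1). Among 11 cardiac, developmental and stretch genes Sln rose and Actc1 fell. White and brown adipocyte, mesothelium, fibrinogen-domain, Schwann cell, liver, heat shock and metallothionein lists had 0 genes past the adjusted threshold. All 12 white adipocyte and all 9 mesothelium genes had a log2 change above 0, with medians of 0.69 and 0.478, beside 0.115 of all genes.

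The genes that the study itself named from these samples were followed as a last list, which is not independent evidence of a direction. Of 16 genes 15 were measured, Trim63 and Fbxo32 rose as described, and 13 did not pass. The paper named Trim63 and Fbxo32 as ligases that LLC tumors did not significantly induce, unlike the other genes of this list. Ctss, a cathepsin of antigen-presenting cells, was at 85.8, 24.1, 14.6, 12.5 and 31.2 TPM in Control + rFibcd1 and at 28.9, 80.7, 83.9 and 30.5 TPM in LLC + rFibcd1. The groups overlapped widely (0.89 ± 0.49, adjusted p = 0.233). The B cell chemokine Cxcl13 ranged from 2.65 to 63.1 TPM and from 9.83 to 119.6 TPM (log2 change 1.42, adjusted p = 0.356), and Ubd, a ubiquitin-like modifier, from 0.0402 to 0.4 TPM and from 0.126 to 9.09 TPM (adjusted p = 0.179).

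Ctse, Ctsw, Ctsz, Ctsc, Ctsh, Ctso and Napsa had log2 changes of 0.34, 0.38, 0.42, 0.42, 0.29, 0.17 and 1.19, with adjusted p of 0.598, 0.33, 0.2, 0.179, 0.293, 0.517 and 0.214. The ligase-related genes Hgs (0.29 ± 0.09, adjusted p = 0.062) and Syvn1 (0.54 ± 0.17, adjusted p = 0.0589) were near the threshold. Ppargc1a, the coactivator PGC-1 alpha, was at 16.4, 20.6, 24.3, 10.1 and 17.4 TPM against 18.4, 17.5, 15.4 and 34.5 TPM. These values overlapped (0.24 ± 0.37, adjusted p = 0.685), and the log2 change was -0.00606 without LLC + rFibcd1 replicate 4. For 12 of these 15 genes the mock-injected mice differed at an adjusted p under 0.05 with a higher level, and for 1 with a lower one.

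The tumor effect was last set beside that in mock-injected mice, which share no mouse with it. Among the 8 mock-injected mice in the model of all 17, 4759 genes (35.8%) passed the adjusted threshold, 3958 higher (29.7%) and 801 lower (6.02%), and 5354 (40.2%) did not overlap. To keep both readings apart, the 304 genes called in a fit of the 9 rFibcd1-injected mice were read in a fit of the 8 mock-injected mice. There, 274 of the 304 (90.1%) went the same way and 139 (45.7%) also passed with that direction, beside 81.2% and 37.1% of all genes. Genes called higher had a median log2 change of 0.46 under rFibcd1 and 0.22 in mock-injected mice, and genes called lower -0.45 and -0.27. The first value of each pair is that by which the genes were chosen. Of the 243 genes called higher, 104 (42.8%) also passed as higher in mock-injected mice, and of the 61 called lower, 35 (57.4%) as lower. In that fit of mock-injected mice, 4446 and 785 of all 13305 genes were called higher and lower. The shares that also passed were 50% beside 31.6% of all genes after median-ratio scaling, 56.1% beside 35.4% after quantile normalization and 52.9% beside 30.1% after rescaling without mitochondrially encoded genes. In the reverse reading, 5231 genes were called in the fit of the 8 mock-injected mice, and 94.3% of them went the same way in rFibcd1-injected mice. Of the 5231, 139 (2.66%) also passed there with that direction, beside 2.06% of all genes.

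The interaction tested the difference itself. At an adjusted p under 0.05 it called 0 genes (limma), with 1142 (8.58%) at an unadjusted p under 0.05. Tmem171, which was measured only through mice with tumors, had the smallest p (1.3e-05, adjusted p = 0.0588). It was at 0.523, 0.372, 0.809, 0.591 and 0.664 TPM in Control + rFibcd1 and at 4.06, 2.65, 3.68 and 3.37 TPM in LLC + rFibcd1, a log2 change of 1.48 ± 0.16 (adjusted p = 0.000475). The groups lay far apart there and overlapped in mock-injected mice, at means ± SD of 0.97 ± 0.323 TPM in the 5 Control and 1 ± 0.598 TPM in the 3 LLC mice.

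Cbfa2t3, a transcriptional corepressor, and Ybx1, a protein that binds RNA and DNA and did not pass after median-ratio scaling, rose under rFibcd1 (0.58 ± 0.06 and 0.25 ± 0.03) with changes of -0.02 and -0.00664 in mock-injected mice and interaction p of 1.67e-05 and 2.41e-05. Stard7, a mitochondrial lipid carrier, and Ndufa2 were the other 2 genes with p under that of Sln. Stard7 had a log2 change of 0.01 ± 0.04 under rFibcd1 (adjusted p = 0.926) and of -0.33 ± 0.04 in mock-injected mice. Each of these had an interaction adjusted p of 0.0588.

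**Figure D5:**
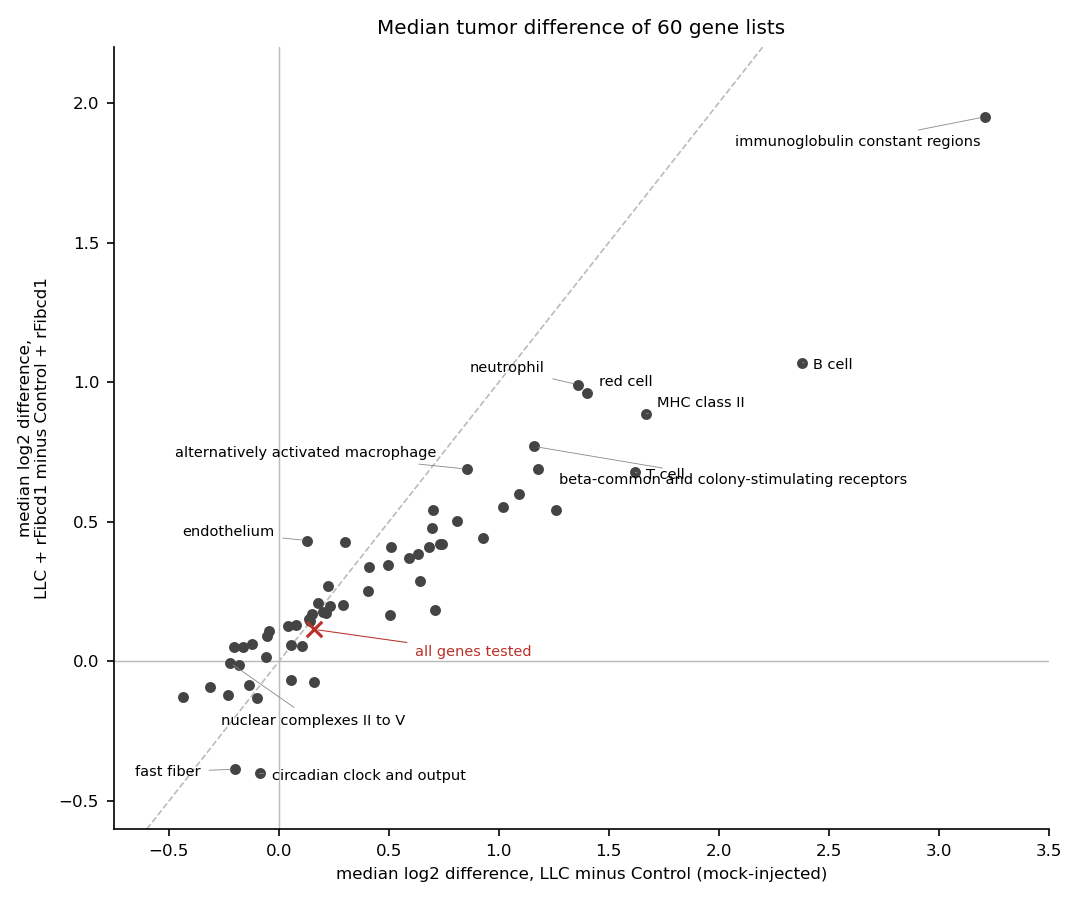
Median log2 difference between mice with and without tumors for each of 60 gene lists, among mock-injected mice (x axis) and among rFibcd1-injected mice (y axis), with 1 point per list, a red cross for all genes tested and a dashed line of equal values. Lists of lymphoid cells lie below the dashed line (B cell genes at 2.38 and 1.07), endothelium above it (0.13 and 0.43), and the circadian clock list at -0.09 and -0.40.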

How the data were processed

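RNA of diaphragm muscle was sequenced in 17 mice, of which 9 enter the main comparison. Per the labels and the methods, the authors aligned reads to GRCm38 (mm10) with CLC Genomics Workbench and deposited TPM per gene symbol, with 1 column per mouse. The sources differ on the library kit, and whether counting used strand is not given in the sources used here. Depth was recovered from the steps of low TPM values (tolerance 0.02 of a whole read).

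The study's methods name a rank test on log TPM. Here log2(TPM + 1) of genes at 1 TPM or more in at least 3 mice was fitted with limma 3.58.1 (R 4.3.3) as 1 model of 4 groups with 13 residual degrees of freedom, a trended variance and Benjamini-Hochberg adjustment, and the rank test was kept as an alternative. The mitochondrial share was tested by exact permutation. The code was tested on simulated data. Coordinates are GENCODE M21, to which 94.6% of symbols matched. Members, 60 gene lists (915 genes) and named genes were chosen with earlier results of these data known. Named were the first 12 higher and 12 lower called genes without overlap (placeholder symbols left out), up to 4 genes per list, 5 by interaction and the study's own, with others chosen after their values were seen: Tef, Clock, Bhlhe40, Nr1d2, Nr1d1, Per1, Cd79a, Cxcr2, Stfa2l1, Tek, Cdh5, Actn3 and Myh4. Some genes that the rule picked or the lists hold are not reported here. Figures used matplotlib 3.10.9. Alternatives covered pseudocount, filter, scaling, model, covariate and leaving out mice.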

Additional observations from a re-analysis of the deposited data

Results flagged for a closer look

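In 310 groups of 4 or 5 mice, 30 held a mouse whose TPM lay far from the others of its group. Chance flags about 1 in 20 groups. Control + rFibcd1 replicate 1 stood apart for Chil3 at 4.21 TPM (others 0.144 to 0.908), Csf2rb at 6.33 TPM (others 0.841 to 1.83), Retnla at 177 TPM (others 31 to 66.1), Trbc2 at 5.14 TPM (others 0.162 to 1.58) and Gabarap at 159 TPM (others 137 to 141). The same mouse stood apart for Ucp2 at 33.6 TPM (others 12.6 to 16.5), Ier2 at 19.4 TPM (others 9.59 to 11.7), Angptl4 at 10.5 TPM (others 0.996 to 3), Cfd at 2009 TPM (others 296 to 417) and Rps15 at 787 TPM (others 588 to 640). The same mouse stood apart for Rplp0 at 725 TPM (others 627 to 651), Ctss at 85.8 TPM (others 12.5 to 31.2), Napsa at 9.32 TPM (others 0.619 to 2.36) and Cd79a at 55.4 TPM (others 1.21 to 10.2). LLC + rFibcd1 replicate 2 stood apart for Ear2 at 11.5 TPM (others 6.51 to 7.18), Spon2 at 5.27 TPM (others 1.74 to 2.12), Dbp at 47 TPM (others 70.1 to 73.4), Atp2a2 at 512 TPM (others 776 to 801) and Tef at 32.2 TPM (others 45.9 to 47.5). Control + rFibcd1 replicate 3 stood apart for S100a8 at 20.5 TPM (others 0.792 to 6.2), Retnlg at 7.24 TPM (others 0.123 to 0.681) and Cxcr2 at 1.13 TPM (others 0.0246 to 0.326). LLC + rFibcd1 replicate 4 stood apart for Ifit3b at 3.92 TPM (others 2.36 to 2.61), Casq1 at 676 TPM (others 521 to 546) and Ppargc1a at 34.5 TPM (others 15.4 to 18.4). LLC + rFibcd1 replicate 1 stood apart for Ccl2 at 2.57 TPM (others 3.89 to 4.09), Bnip3 at 411 TPM (others 279 to 298), Itga7 at 76.2 TPM (others 67.1 to 67.4) and Nr1d2 at 38.5 TPM (others 30.7 to 31.7). LLC + rFibcd1 replicate 3 stood apart for mt-Nd4l at 14908 TPM (others 16708 to 17035). Ndufa2, a complex I subunit, differed in opposite directions, by 0.12 on the log2 scale among rFibcd1-injected mice and by -0.167 among mock-injected mice, without overlap of the groups in either. Its interaction had an unadjusted p of 1.96e-05 and an adjusted p of 0.0588 (limma). Of all 13305 genes, 15 had opposite differences without overlap.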

How the results depend on the processing

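The count of genes past an adjusted p of 0.05 was 1072. It was 490 with median-ratio scaling, 467 with quantile normalization, 581 after rescaling without mitochondrially encoded genes, 304 with only the 9 mice, 633 with the B cell list as a covariate and 0 by Dunn's test, and leaving out single mice gave 477 to 2893. The setting without Control + rFibcd1 replicates 2 and 3 was chosen after seeing the data and gave 253. With the replicate number as a block the count was 492. Same-numbered mice did not deviate together (r from -0.459 to 0.0438), and 0 of 4 LLC + rFibcd1 mice were most like their own number. So few pairs cannot show whether the numbers pair the mice, and the labels do not say. Past an unadjusted p of 0.05 and 1.5-fold there were 358 genes, 640 with a pseudocount of 0.1 TPM, 234 after quantile normalization, 179 with the B cell covariate, 217 without replicates 2 and 3, and 223 to 937 without single mice. Genes without overlap numbered 1185 to 2842 without single mice. The interaction called 0 genes, but 1 with no filter on low values, 1 each with median-ratio scaling and quantile normalization, 12 with array weights, 2 with the B cell covariate, 1 without replicates 2 and 3, and 0 to 11 without single mice. For the genes called among rFibcd1-injected mice, the median difference in mock-injected mice, signed by direction, was 0.237, and 0.171 with no filter, 0.364 with median-ratio scaling, 0.394 with quantile normalization and 0.317 without mitochondrially encoded genes. Log2 changes turned negative for Ndufa2 (-0.0238) and Atp5l (-0.0263) after median-ratio scaling, for Stard7 after median-ratio scaling (-0.136), quantile normalization (-0.0842), rescaling without mitochondrially encoded genes (-0.0629) and with array weights (-0.0146), and for Cxcl13 (-0.0101) and Ctso (-0.0483) with the B cell covariate. Without single mice, Stard7 ranged from -0.00862 to 0.023 and Ppargc1a from -0.00606 to 0.365. The cause of these changes was not tested. Of depth, 1 TPM in a gene of 1000 bases stood for 24.1 to 26.7 reads, and groups held 4 and 5 mice.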
